A study of Mus musculus with 23 samples.

Results

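The collagen gene family was followed through RNA sequencing of mouse retinal organoids. Members were the protein-coding genes on the assembled chromosomes whose symbol has the form Col, a number, the letter a and a number, and 44 of the 52143 genes in the deposited tables met this rule. By textbook class they were 11 fibrillar, 6 basement membrane (type IV), 3 network, 4 transmembrane, 9 fibril-associated (FACIT), 7 beaded filament and anchoring (types VI and VII), 2 multiplexin and 2 other collagens.

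A collagen is built of chains that wind into a triple helix, which needs glycine at each turn of a repeating Gly-X-Y triplet. Fibrillar collagens pack into cross-banded fibrils, FACIT collagens sit on the surface of those fibrils, and type IV collagens form the sheet of a basement membrane such as the inner limiting membrane of the retina or Bruch's membrane. Transmembrane collagens stay in the cell membrane and can be shed from it. In the eye, types II, V/XI and IX make up the fibrils of the vitreous, while types I and III are typical of mesenchymal connective tissue.

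The organoids came from 1 Nrl-GFP wild-type induced pluripotent stem cell clone, reprogrammed from embryonic fibroblasts, in which GFP marks rod photoreceptors. Matrigel, itself a basement membrane extract, was added to all cultures at day 1, and all received taurine, 9-cis retinal and insulin-like growth factor 1 until day 26. Each sample pooled neural retina dissected out of 12 organoids, and the labels call samples of a group biological replicates without naming separate differentiations. From day 10 the cultures of every group received bovine serum albumin (BSA) alone, linoleic acid (LA) bound to BSA, or docosahexaenoic acid (DHA) bound to BSA, the fatty acids at 26 µM. At day 26 the shared medium gained non-essential amino acids, B27 without vitamin A and 2% fetal bovine serum, and some cultures also received fibroblast growth factor 1 (FGF1) at 200 ng/ml from that day. At day 26 (D26) there were 2 libraries each of BSA, LA and DHA. At day 32 (D32) without FGF1 there were 3 of each, and at D32 with FGF1 there were 3 BSA, 3 LA and 2 DHA libraries, 23 in all.

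Depth divided the libraries in a way the labels do not name. The 6 D26 libraries and replicates 1 and 2 of each D32 group with FGF1 held 16029580 to 20510550 estimated counts and are called the 12 deeper libraries. The other 11 held 10405663 to 11888224 and are called the shallower libraries: the 9 libraries grown without FGF1 to D32, plus replicate 3 of both the BSA and the LA cultures given FGF1. The authors left 5 of the shallower libraries out of their normalized table, namely replicate 1 of the 3 D32 groups without FGF1 and the 2 with FGF1. Day and FGF1 were therefore compared within a library set wherever the design allowed it. The summed level of 12 photoreceptor markers lay between 3588 and 9804 CPM (estimated counts scaled to a common library size) in the deeper libraries, and none of these genes was below 1 CPM in all libraries. Of the markers of other tissues, 3 of 10 for pigment cells (Rpe65, Best1, Slc45a2), 2 of 8 for endothelium (Cdh5, Cldn5), 3 of 8 for cartilage (Matn1, Comp, Ucma), 6 of 8 for lens and 1 of 10 for fibroblasts and mesenchyme (Twist2) were below 1 CPM in every library. The other markers on these lists reached 1 CPM in at least 1 library.

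The coding sequences show the feature that defines the family. In each stretch below, read from the main transcript of GENCODE M21 on the coding strand, 15 codons are printed with the glycine codons in capitals. The 4 genes were chosen because the comparisons below turn on them and because they stand for a fibrillar, a basement membrane, a FACIT and a transmembrane chain.
Col3a1, codons 164 to 178: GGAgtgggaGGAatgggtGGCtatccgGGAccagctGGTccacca
Col4a5, codons 1249 to 1263: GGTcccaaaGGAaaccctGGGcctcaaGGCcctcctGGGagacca
Col9a1, codons 177 to 191: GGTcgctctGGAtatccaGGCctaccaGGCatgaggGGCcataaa
Col23a1, codons 110 to 124: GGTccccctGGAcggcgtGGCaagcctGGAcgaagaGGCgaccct

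The classes differ in how long such a run goes on without a break. Among the fibrillar genes the longest unbroken run was 337 to 344 triplets in 9 genes, and 216 in Col24a1 and 217 in Col27a1. In the 6 type IV genes the longest run was only 39 to 66 triplets, and each had 16 to 24 separate runs of at least 5. The 3 type IX genes each had a longest run of 113 triplets, the network genes 60 or 61, and the transmembrane genes 37 to 56.

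Per kilobase of transcript the most abundant collagen over all 23 libraries was Col9a1, the alpha 1 chain of type IX, with a mean level of 30.1 CPM per kb. Col9a3 (17.8), Col2a1 (17.5), Col6a1 (16.8), Col23a1 (8.47) and Col4a5 (8.26) followed on the same scale. These means pool the deeper and the shallower libraries, and the order differed by stage and set. At D26 Col2a1 led with 30.3 CPM per kb and Col9a1 stood at 8.03. At D32 with FGF1 in the deeper libraries Col9a1 reached 52.5, with Col9a3 at 33.5, Col2a1 at 29.2 and Col6a1 at 24.6. At D32 without FGF1, in the shallower libraries of the authors' table, Col9a1 stood at 33.6. There Col9a3 was at 5.085, Col2a1 at 4.31 and Col6a1 at 6.12. The lowest levels were those of Col6a6 (0.0265 CPM per kb), which was too low to test in any comparison, and Col19a1 (0.114). Ranges over single libraries were wide, for example 0.478 to 35.2 CPM per kb for Col3a1 and 1.47 to 3.79 for Col25a1, so neighbours in this order are not set apart.

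The comparison of D32 with FGF1 against D26 within the deeper libraries, 6 against 6, is the one day comparison that stays inside a library set. It holds age, the change of medium and FGF1 together. Of 42 members tested, 12 rose and 2 fell at an adjusted p under 0.05 (edgeR quasi-likelihood test, Benjamini-Hochberg over 20111 genes). Of all genes tested 28.7% passed, 14.6% higher and 14.1% lower. The median log2 difference was 0.42 over the members and 0.003 over all genes, and 33 of 42 members had a positive value. These values average BSA, LA and DHA, which were not alike. Among 11 fibrillar members, 9 were positive in BSA, 10 in LA and 5 in DHA, with medians of 0.50, 1.08 and -0.14. Of 6 beaded filament and anchoring members tested, 4, 6 and 1 were positive in the same order. For 9 FACIT members the numbers were 8, 7 and 6. Of the 14 members that passed in the average, 9 passed under all 19 alternative settings: Col9a1, Col23a1, Col5a3, Col17a1, Col12a1, Col7a1, Col27a1, Col20a1 and Col13a1. In tissue RNA of this kind, a change in how many cells of a type are present and a change in RNA per cell cannot be told apart.

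**Figure D1:**
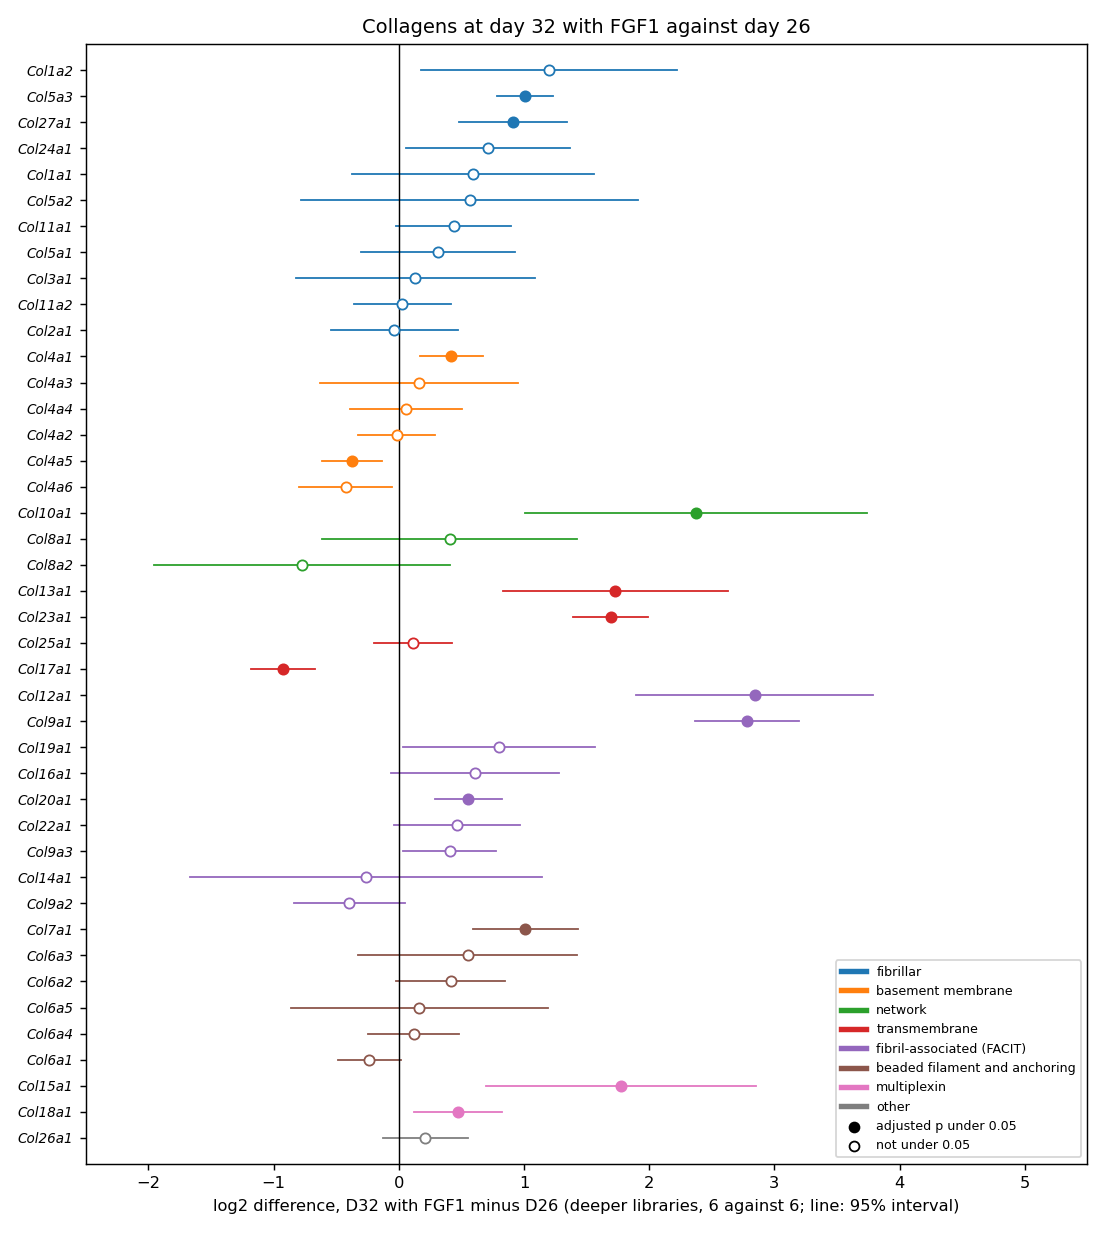
Log2 difference between D32 with FGF1 and D26 in the deeper libraries (6 against 6) for each of the 42 collagens tested, ordered by class; lines are 95% intervals and filled points have an adjusted p under 0.05. The values run from -0.93 for Col17a1 to 2.84 for Col12a1, and 12 filled points lie right of 0 and 2 left of it.

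The members with the largest differences, Col12a1 and Col9a1, were FACIT collagens, and 3 of 9 in the class rose. Col9a1, on chromosome 1 at 24177610 to 24252684 (GRCm38, plus strand), ranged from 12.2 through a median of 22.9 to 38.7 CPM in the 6 libraries at D26, and from 115 through 163 to 218 CPM at D32 with FGF1. All 6 later libraries lay above all 6 earlier ones. The difference was 2.78 on the log2 scale (SE 0.189, adjusted p = 2.9e-06, edgeR), or 6.87-fold, and it was positive in each medium, at 2.94 in BSA, 2.46 in LA and 2.93 in DHA. Col12a1, whose product binds to type I fibrils, ranged from 0.367 through 2.88 to 8.74 CPM and then from 6.91 through 22.1 to 33.3 CPM, a rise of 2.84 (SE 0.434, adjusted p = 0.000575). The groups overlapped through a DHA library with FGF1 (6.91) and an LA library at D26 (8.74). Col20a1, a FACIT member, rose by 0.55 (SE 0.122, adjusted p = 0.00564), from 23.3 to 41.7 CPM to 37.8 to 52.9 CPM. The other type IX chains did not pass: Col9a3 lay between 52.1 and 68.9 CPM at D26 and between 44.3 and 106 CPM later (0.41, adjusted p = 0.0991; 6.07% of its exonic bases overlap Tcfl5 on the other strand), and Col9a2 was at -0.39 (adjusted p = 0.17). Col14a1, Col16a1, Col19a1 and Col22a1 had values between -0.26 and 0.80 and did not pass either.

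**Figure D2:**
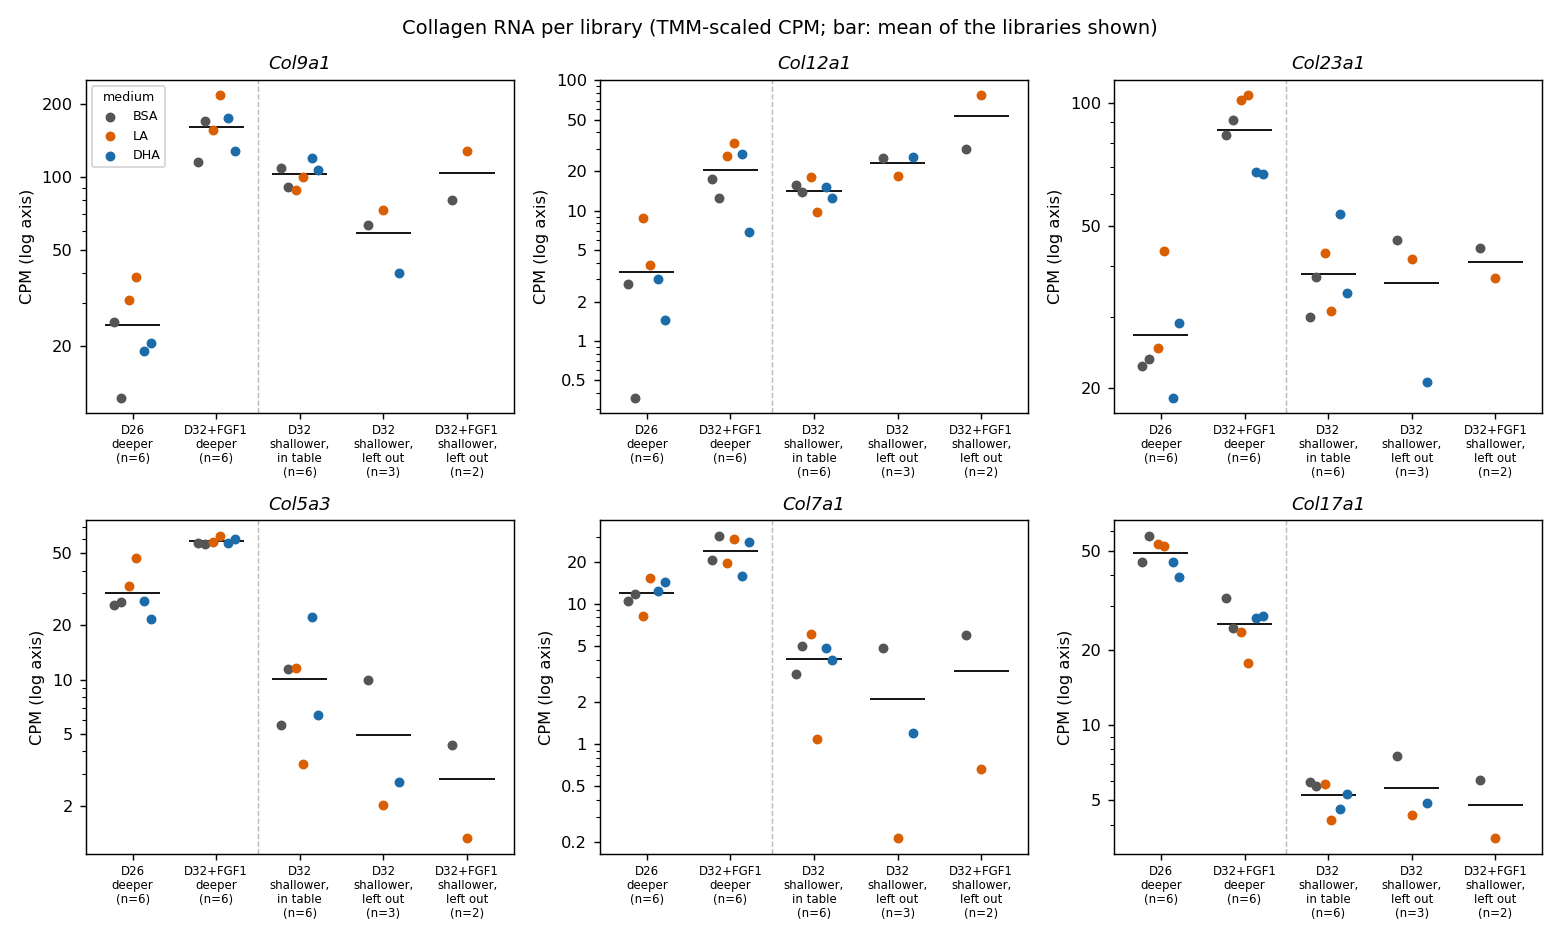
TMM-scaled CPM on a log axis for 6 collagens in each of the 23 libraries, coloured by medium and set out by day, FGF1 and library set; the black bar is the mean of the libraries in that column, and the dashed line parts the deeper libraries (left) from the shallower (right). Col9a1 lies at 12.2 to 38.7 in the first column and at 115 to 218 in the second, while Col17a1 goes from 39.3 to 57.5 down to 17.8 to 32.4.

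Nearly all Col9a1 RNA was assigned to a single transcript. The annotation gives the gene an upstream start at position 24177610 and a downstream start at 24195187, and the form from the downstream start, which lacks the first exons, is the short form known from the eye. Transcript ENSMUST00000088349, from the downstream start, took 99.3% ± 0.404 (SD, n = 23 libraries) of the gene's count, with a range of 98.2% to 100.0%. The transcript from the upstream start, ENSMUST00000054588, took 0.218% of the gene's summed count. The share was 99.3% ± 0.40 at D26 and 99.2% ± 0.222 at D32 with FGF1 (deeper, n = 6 each), so the rise was carried by the short form. These shares are estimates by the authors' transcript quantification, taken over the transcripts that GENCODE M21 also holds.

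The DNA just ahead of the Col9a1 starts and of the Col23a1 start, the members with the 2 smallest p values, is printed here 5′ to 3′ for comparison. Each window is the 200 bases before the start of the transcript in GENCODE M21 or RefSeq, whichever lies further upstream, on the plus strand. The bases are from the RefSeq promoter table (GRCm38.p6), with every CG dinucleotide in capitals. At the downstream Col9a1 start GENCODE begins at 24195187 and RefSeq at 24195203.
Col9a1 upstream start, chr1:24177410-24177609: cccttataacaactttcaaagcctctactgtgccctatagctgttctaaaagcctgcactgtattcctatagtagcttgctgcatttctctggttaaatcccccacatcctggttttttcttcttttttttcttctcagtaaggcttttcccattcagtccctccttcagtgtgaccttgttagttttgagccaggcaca
Col9a1 downstream start, chr1:24194987-24195186: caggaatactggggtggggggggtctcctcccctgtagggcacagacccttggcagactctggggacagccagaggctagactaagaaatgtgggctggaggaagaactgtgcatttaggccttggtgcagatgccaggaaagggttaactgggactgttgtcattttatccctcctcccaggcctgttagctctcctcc
Col23a1, chr11:51289720-51289919: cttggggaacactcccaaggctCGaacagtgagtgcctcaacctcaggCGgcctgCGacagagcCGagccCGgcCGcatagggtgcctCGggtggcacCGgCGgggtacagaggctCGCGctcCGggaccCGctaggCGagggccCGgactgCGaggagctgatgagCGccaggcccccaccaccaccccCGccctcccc

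Neither Col9a1 window holds a CG, and the Col23a1 window holds 18. In the full 250 bases before a start the median over 32851 RefSeq promoters was 6. RefSeq gave 38 promoters for 35 of the 44 members. The core motif bound by the photoreceptor factors CRX and OTX2, TAATCC on either strand, was in 0 of the 38 and in 6.25% of all promoters, while the GC box GGGCGG was in 22 of the 38 and in 32.7% of all. TATAAA was in 5 of 38 (12.4% of all) and the SOX core ACAAAG in 4 of 38 (16.5% of all). These matches describe the letters in the window only.

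Transmembrane collagens moved in both directions. Col23a1 (chromosome 11, 51289920 to 51583918, plus strand) ranged from 19.0 through 24.4 to 43.4 CPM at D26 and from 67.2 through 87.3 to 105 CPM at D32 with FGF1. The groups stood fully apart, and the rise was 1.69 (SE 0.137, adjusted p = 8.72e-06), or 3.23-fold. Col17a1 (chromosome 19, 47646344 to 47692094, minus strand), the hemidesmosome collagen of epithelia, went the other way: from 39.3 through 48.6 to 57.5 CPM down to 17.8 through 25.6 to 32.4 CPM. It fell by 0.93 (SE 0.116, adjusted p = 0.000151), again with no overlap. Col13a1 rose by 1.73 (SE 0.411, adjusted p = 0.00842) at low levels, from 0.107 to 0.401 CPM to 0.199 to 1.42 CPM. Its mean went from 0.161 to 0.968 CPM in BSA and from 0.2545 to 1.28 CPM in LA. In DHA it went only from 0.241 to 0.303 CPM, and the libraries overlapped. Col25a1, found on neurons, stayed between 7.90 and 14.7 CPM in these 12 libraries, with a log2 difference of 0.12 and a 95% interval of -0.19 to 0.43.

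Among the fibrillar collagens 2 of 11 rose. Col5a3, a minor chain of type V, ranged from 21.6 through 26.9 to 47.0 CPM at D26 and from 56.0 through 57.6 to 62.7 CPM later. It rose by 1.01 (SE 0.103, adjusted p = 3.75e-05), and all 6 later libraries lay above all 6 earlier ones. Col27a1 also separated the groups, with 1.98 to 4.19 CPM before and 5.40 to 7.81 CPM after (0.91, SE 0.197, adjusted p = 0.00491). Col2a1, the main fibrillar chain of the vitreous and the fibrillar member with the highest level, ranged from 106 to 170 CPM and then from 91.1 to 226 CPM, a log2 difference of -0.04 with a 95% interval of -0.54 to 0.47. Its partners Col11a1 (0.44, adjusted p = 0.144) and Col11a2 (0.03, adjusted p = 0.935) did not pass, nor did Col5a1, Col5a2 and Col24a1, at 0.32, 0.57 and 0.71. The chains of types I and III had wide ranges at D32 with FGF1: Col1a1 from 2.27 through 9.17 to 98.1 CPM, Col1a2 from 5.34 through 12.8 to 103 CPM and Col3a1 from 2.88 through 4.17 to 115 CPM. Their log2 differences from D26 were 0.59, 1.2 (adjusted p = 0.0762) and 0.13, and in each the top value was the same library, LA with FGF1 replicate 1.

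Of the 6 basement membrane collagens 1 rose and 1 fell. Col4a1, which forms the common type IV trimer with Col4a2, ranged from 20.5 through 31.0 to 52.7 CPM and then from 28.1 through 43.1 to 63.2 CPM, with a rise of 0.42 (SE 0.114, adjusted p = 0.0165). Col4a2 lay at 25.1 ± 4.02 CPM at D26 and 25.3 ± 9.67 CPM later (SD, n = 6 each), a log2 difference of -0.02. The genes lie head to head on chromosome 8 and their annotated ends overlap by 22 bases. Col4a5, which assembles with the alpha 3, 4 and 6 chains, ranged from 64.7 through 70.6 to 94.0 CPM and then from 41.7 through 56.3 to 70.3 CPM, and fell by 0.37 (SE 0.110, adjusted p = 0.0239). The call was lost for Col4a1 without BSA replicate 2 at D26 (adjusted p = 0.0551) or without BSA with FGF1 replicate 2 (0.0523), and for Col4a5 on leaving out any of 6 libraries (up to 0.0713). Its neighbour Col4a6, 1308 bases away in the opposite orientation, was at -0.42 (adjusted p = 0.0828). Col4a6 counts are uncertain, because a second copy of the gene on a patch sequence carries the same count in every library, and how the reads were divided between the copies was not tested. Col4a3 and Col4a4, a head-to-head pair 71 bases apart on chromosome 1, were low (at most 2.84 and 2.96 CPM at D32 with FGF1 in these libraries) and had differences of 0.16 and 0.06.

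The network collagens were scarce, with the 3 genes summing to 0.944 to 8.42 CPM at D26 and 1.54 to 15.4 CPM later. Col10a1, the collagen of hypertrophic cartilage, rose by 2.37 (SE 0.624, adjusted p = 0.0144), yet only from 0.0524 to 0.537 CPM to 0.397 to 2.53 CPM, and the call was lost without either BSA replicate 2 with FGF1 (adjusted p = 0.0628) or DHA replicate 2 with FGF1 (0.0528). Col8a1 and Col8a2, which build the hexagonal lattice of Descemet's membrane, gave 0.41 and -0.78 and did not pass. Hapln1 and Acan, cartilage matrix markers, rose by 2.03 and 3.17, and Matn3 fell by 2.40; Matn1, Comp and Ucma were below 1 CPM in every library. The part of any cartilage-like cells in the Col10a1 value was not tested.

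In the beaded filament and anchoring class Col7a1, the anchoring fibril collagen, rose by 1.01 (SE 0.191, adjusted p = 0.00222), from 8.26 through 12.1 to 15.2 CPM to 15.9 through 24.1 to 30.7 CPM, without overlap. Col6a1 was the highest of the class at 90.4 to 140 CPM and then 68.3 to 147 CPM (-0.23, adjusted p = 0.158), and Col6a2, Col6a3, Col6a4 and Col6a5 lay between 0.12 and 0.55 and did not pass. Both multiplexins rose: Col15a1 by 1.78 (adjusted p = 0.0185) and Col18a1, the source of endostatin, by 0.47 (adjusted p = 0.0458), with ranges of 17.9 to 31.1 and then 28.5 to 47.1 CPM for the latter. The Col15a1 value was carried in part by LA with FGF1 replicate 1 at 13.99 CPM, since the other 5 libraries lay at 1.14 to 2.56; without it the difference was 1.06 (adjusted p = 0.0579). The Col18a1 call was lost on leaving out any of 10 of the 12 libraries. Col26a1 was at 0.21 (adjusted p = 0.339), and Col28a1 was too low to test here.

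Counting only members whose 6 libraries at D32 with FGF1 did not overlap the 6 at D26, 5 were higher (Col9a1, Col23a1, Col5a3, Col7a1 and Col27a1) and 1 was lower (Col17a1). Over all genes above 0.5 CPM the shares were 8.23% higher and 9.05% lower.

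Other genes of the collagen pathway were taken from lists that were chosen with earlier results of these data known. In this step 14.6% of all genes tested rose and 14.1% fell. Lists are counted as listed unless the number tested is given. Of 27 processing enzymes and chaperones, 10 rose and 2 fell. Pcolce, an enhancer of procollagen C-terminal cleavage, rose by 2.50 (adjusted p = 1.85e-05), Plod1, a lysyl hydroxylase, by 1.13 (adjusted p = 1.74e-05), Adamts3, a procollagen N-terminal protease, by 1.36 (adjusted p = 0.000104) and Bmp1, the C-terminal protease, by 1.31 (adjusted p = 0.000225). The 2 that fell were chaperones of the endoplasmic reticulum, Serpinh1 (HSP47) by 0.70 and Ppib by 0.67. Among 5 cross-linking oxidases Loxl4 (1.84) and Loxl1 (0.80) rose, among 9 receptors Itga1 (1.24) and Lair1 (1.06) rose and Itga11 fell by 0.93, and of 15 basement membrane partners Nid1 (2.17), Agrn (1.104) and Lama5 (0.61) rose. Of 8 breakdown genes, 6 were tested and Mmp9 (1.14) and Mmp2 (0.42) rose.

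Markers of other cell types also moved over this step, in which 14.6% of all genes tested rose and 14.1% fell. Of 8 Müller glia markers 5 rose, among them Kcnj10 (3.72) and Rlbp1 (2.03), and their summed level went from 857 to 1258 CPM at D26 to 1394 to 2222 CPM. Of 12 photoreceptor markers 6 rose and 3 fell. Of 9 fibroblast and mesenchyme markers tested, Thy1, Pdgfra and Prrx1 rose and none fell; the list of 10 summed to 33.8 to 73.0 CPM at D26 and to 51.1 to 191 CPM later, with Twist2 below 1 CPM in every library. Of 8 pigment cell markers tested, Pmel, Tyr and Tyrp1 fell and 0 had a positive value. The part of such shifts in the collagen values was not tested.

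Fatty acid media were first compared within strata of day, FGF1 and library set, over all 23 libraries. For DHA against LA no gene of 21124 passed (0.0%), and no collagen; at an unadjusted p under 0.05 there were 956 genes (4.53%) and 11 of 43 members. Members had a median log2 difference of -0.36, against 0.02 for all genes, and 32 of 43 were negative. The smallest p values belonged to Col3a1 (-2.51, SE 0.65, 95% interval -3.86 to -1.16), Col4a4 (0.75, SE 0.198), Col1a2 (-1.56, SE 0.465), Col1a1 (-1.76, SE 0.593), Col8a1 (-1.13) and Col6a5 (-1.39), with adjusted p of 0.929 or higher in edgeR. By class the medians were -0.57 for fibrillar, -0.20 for basement membrane, -1.01 for network and -0.13 for transmembrane collagens.

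For DHA against BSA no gene passed (0.0%; 414 unadjusted, 1.96%), nor any member, with Col4a4 (0.45) and Col6a4 (-0.55) under an unadjusted 0.05. LA against BSA likewise gave 0 genes (0.0%; 639 unadjusted, 3.02%) and 0 members. There, Col3a1 (1.59), Col9a1 (0.42), Col17a1 (-0.33), Col12a1 (0.86) and Col14a1 (1.41) were under an unadjusted 0.05. With only the 12 deeper libraries in the fit, LA against BSA called 1 gene, and it was Col4a1 (1.00, SE 0.127, adjusted p = 0.0333, edgeR). Col4a1 was 52.7 and 44.1 CPM with LA at D26 against 29.1 and 20.5 with BSA, and 60.6 and 63.2 CPM with LA and FGF1 against 28.1 and 32.7 with BSA and FGF1, so the media did not overlap at either stage. The share of all genes apart in this way was not counted. With each stage tested alone, 0 basement membrane members passed for LA against BSA. In the shallower libraries Col4a1 was 5.43, 33.3 and 3.73 CPM with LA and 23.7, 8.61 and 12.3 CPM with BSA at D32 without FGF1, which overlapped. These contrasts share libraries, so their values are not independent of each other.

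At D26, with 2 libraries per medium, DHA against LA again gave no call (0.0%) and 6 of 42 members under an unadjusted 0.05, against 3.17% of genes. In 14 of 39 members both DHA libraries lay below both LA libraries (13.4% of genes above 0.5 CPM did), and in 4 above (10.3%). Col5a3 was 27.1 and 21.6 CPM with DHA and 33.1 and 47.0 CPM with LA (-0.72, SE 0.179). Col4a1 was 25.8 and 32.9 CPM with DHA against 52.7 and 44.1 CPM with LA (-0.73), and Col9a1 19.0 and 20.6 against 31.1 and 38.7 CPM (-0.82). Col20a1 went the other way, at 41.7 in both DHA libraries against 23.3 and 25.1 CPM (0.78), as did Col4a4 at 3.12 and 2.47 against 1.40 and 1.103 CPM (1.15). In these 5 genes the 4 libraries did not overlap, while in Col23a1 (-0.52) they did.

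**Figure D3:**
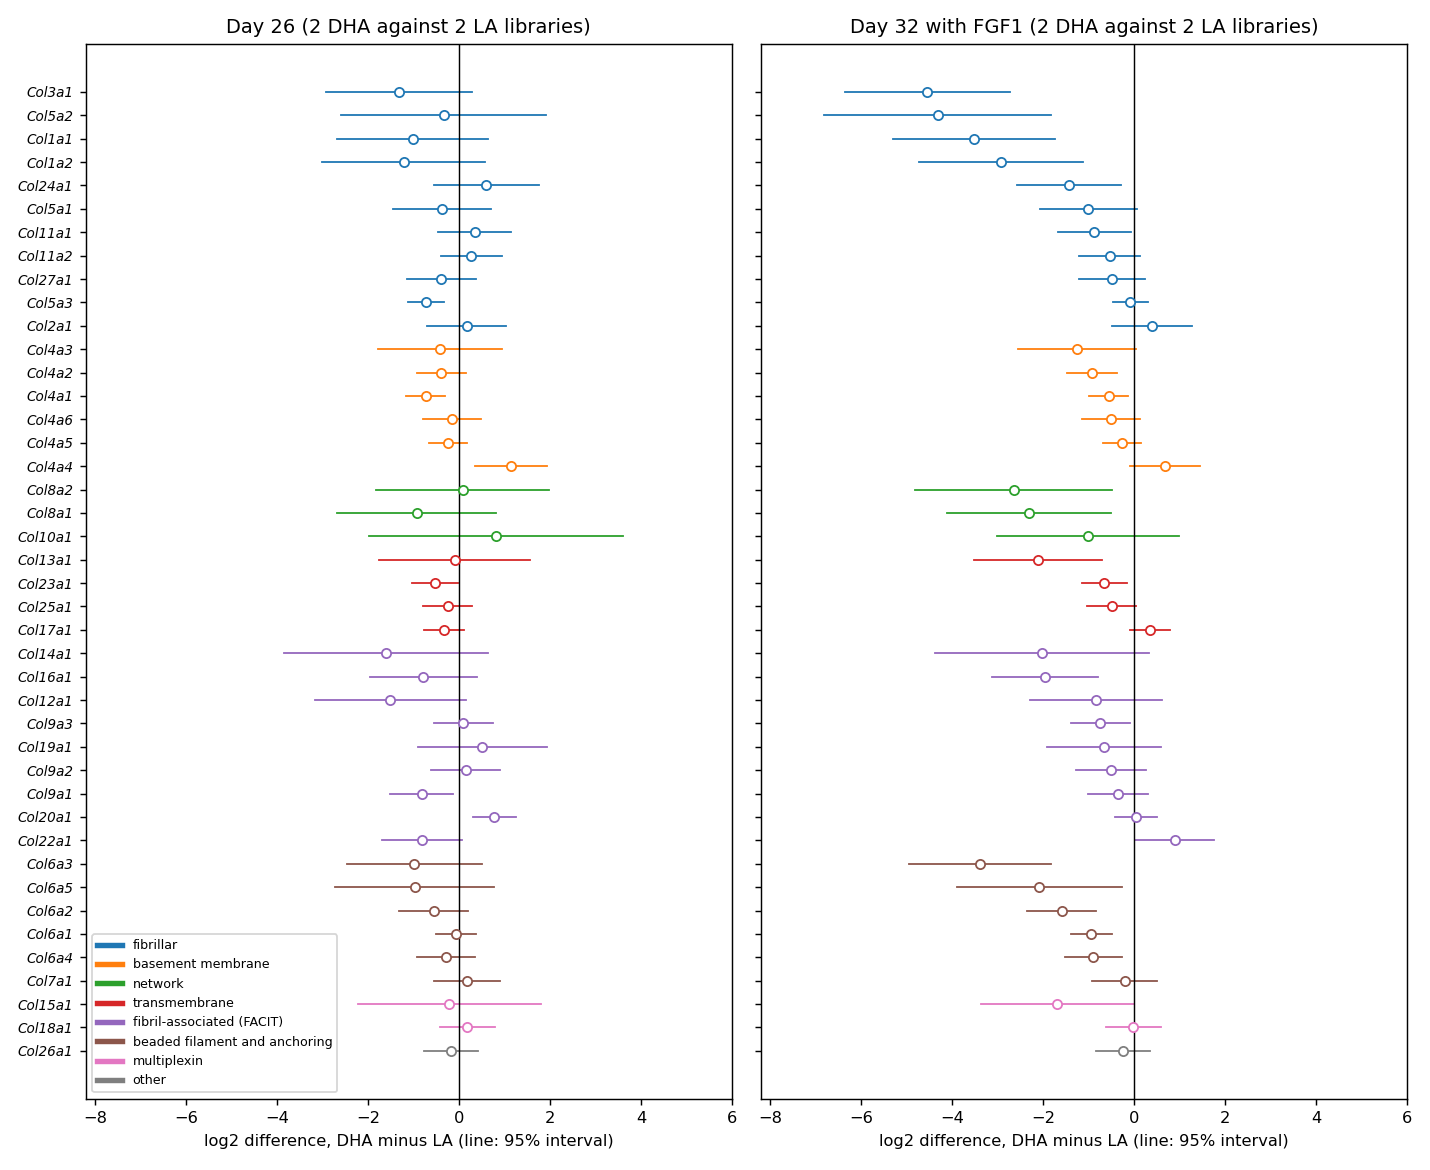
Log2 difference of DHA against LA for 42 collagens at D26 (left) and at D32 with FGF1 (right), 2 against 2 deeper libraries in each panel, ordered by class, with 95% intervals; no point passes an adjusted p of 0.05. At D26, 29 of the 42 points lie left of 0, and at D32 with FGF1, 37 of 42.

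At D32 with FGF1 in the deeper libraries the DHA against LA values of collagens were larger. Of 20111 genes 2 passed (0.00994%) and no member did, while 21 of 42 members were under an unadjusted p of 0.05, against 7.61% of genes. The median member value was -0.86, with 37 of 42 negative, and -0.01 over all genes. In 24 of 43 members the DHA libraries lay below both LA libraries (16.5% of genes above 0.5 CPM did), and in 3 they lay above (22.8% of genes).

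The interstitial chains had the largest values. Col3a1 was 2.88 and 2.96 CPM with DHA, 4.03 and 4.31 CPM with BSA, and 115 and 16.6 CPM with LA, so that both LA libraries lay above the other 4 and differed widely from each other. The DHA against LA value was -4.54 (SE 0.828, adjusted p = 0.178, edgeR). Against BSA, LA was at 4.01 and DHA at -0.54, with a 95% interval of -2.30 to 1.23 for the latter. Col1a1 was 8.38 and 2.27 CPM with DHA, 9.96 and 6.82 with BSA, and 98.1 and 22.0 with LA (-3.53, SE 0.814, adjusted p = 0.244). Col5a2, the type V chain that joins type I fibrils, was 0.595 and 0.871 CPM with DHA, 2.83 and 1.67 with BSA and 25.0 and 3.36 with LA (-4.32). Among type VI chains Col6a3 (-3.39), Col6a2 (-1.59) and Col6a1 (-0.94) followed, the last at 68.3 and 70.7 CPM against 147 and 112 CPM.

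The size rested largely on LA with FGF1 replicate 1. Its level was 4.45 times that of replicate 2 for Col1a1, 6.70 times for Col1a2, 6.95 times for Col3a1 and 7.44 times for Col5a2. The fibroblast markers Dcn and Lum had ratios of 11.8 each between the same libraries, at 37.1 and 3.15 CPM for Dcn. They are 2 of the 10 markers listed. The list as a whole differed less between these libraries, at 119 CPM in the lower and 191 CPM in the higher. Without replicate 1 the DHA against LA value of Col3a1 was -2.53, and without replicate 2 it was -5.35, each with 1 LA library left. All 9 fibroblast and mesenchyme markers tested were negative in this contrast, with a median of -1.44, as were all 8 pigment cell markers, with a median of -3.65; none passed the adjusted threshold. The list of fibroblast markers summed to 51.9 and 78.2 CPM with DHA, 51.1 and 67.1 with BSA, and 119 and 191 with LA, the lower library first in each. The part of such cells in the collagen values was not tested.

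**Figure D4:**
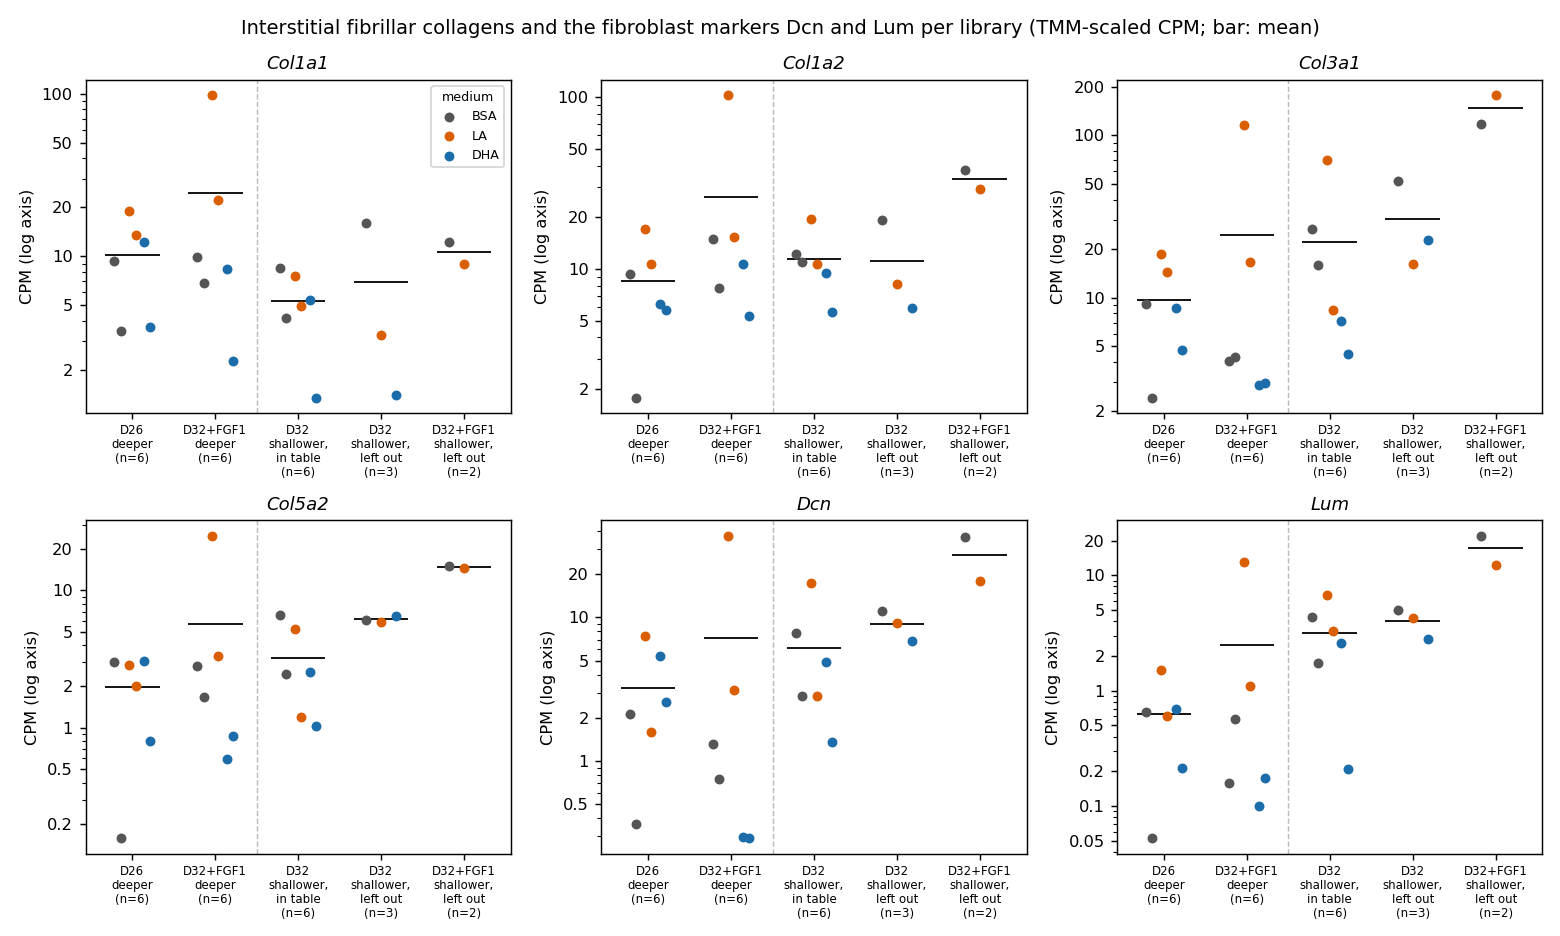
TMM-scaled CPM on a log axis of Col1a1, Col1a2, Col3a1 and Col5a2 and of the fibroblast markers Dcn and Lum in each of the 23 libraries, by day, FGF1 and library set, coloured by medium, with the mean of each column as a bar. A single LA library at D32 with FGF1 is the top point of the deeper libraries in all 6 panels, at 115 CPM for Col3a1 and 37.1 CPM for Dcn.

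The difference between the DHA against LA values at D32 with FGF1 and at D26 was tested as an interaction. No gene passed (0.0%), and 11 members against 6.32% of genes were under an unadjusted 0.05. The smallest p values were those of Col6a1 (-0.87), Col3a1 (-3.23), Col22a1 (1.70), Col24a1 (-2.04), Col5a2 (-3.99) and Col5a3 (0.63), with adjusted p between 0.61 and 0.724. At D32 without FGF1, in the shallower libraries, DHA against LA gave no call among 18029 genes (0.0%; 1.99% unadjusted). The single member under an unadjusted 0.05 was Col3a1, at 22.8, 7.19 and 4.47 CPM with DHA and 16.2, 70.0 and 8.33 CPM with LA, groups that overlapped (-1.86, SE 0.783). Taken by number, DHA lay above LA in replicate 1 and below it in replicates 2 and 3. The test did not pair the libraries by number.

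FGF1 could be compared inside a library set only among the 11 shallower libraries, of which 2 had it, both of them replicate 3. No gene passed (0.0%), and at an unadjusted p under 0.05 there were 342 genes (1.9%) and 4 members: Col1a2 (1.36, SE 0.438), Col12a1 (1.15, SE 0.422), Col9a1 (0.77, SE 0.286) and Col14a1 (2.10, SE 0.815). All 42 adjusted p values were 1. Col12a1 was 29.7 (BSA) and 77.5 CPM (LA) with FGF1, and 9.86 to 25.7 CPM in the 9 libraries without. Col9a1 was 79.9 and 128 CPM with FGF1 and 40.0 to 120 CPM without.

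Restricting this to the 5 libraries the authors left out, 2 with FGF1 against 3 without, 7 members were higher without overlap: Col12a1, Col14a1, Col1a2, Col3a1, Col5a2, Col6a3 and Col9a1. Of all genes above 0.5 CPM 9.76% were. Only Col11a2 was lower without overlap (8.42% of genes). The libraries with FGF1 were replicate 3 of BSA and LA, and those without were replicate 1 of BSA, LA and DHA. FGF1 and replicate number therefore cannot be told apart here, and DHA was present on 1 side only. Col3a1 was 117 and 178 CPM with FGF1 against 52.4, 16.2 and 22.8 CPM without. Dcn was 36.2 and 18.0 CPM with FGF1 against 11.1, 9.15 and 6.83 CPM without. The fibroblast list ranged from 216 to 301 CPM with FGF1 and from 98.6 to 127 CPM without. Its part in the collagen values was not tested.

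The remaining comparisons of the design cross from the deeper to the shallower libraries, so day or FGF1 and library set cannot be told apart in them. D32 without FGF1 against D26 called 60.9% of 21124 genes (29.5% higher, 31.4% lower; 65.0% at an unadjusted p under 0.05) and 27 of 43 members, 7 higher and 20 lower. FGF1 at D32 called 45.3% of genes (27.0% higher, 18.3% lower; 54.2% unadjusted) and 24 of 43 members, all higher. In both, the values of the members followed the GC content of their transcripts. The Spearman rank correlation across 43 members was -0.734 for the former and 0.854 for the latter, against -0.105 across 42 members for the step within the deeper libraries; members are not independent replicates, and the 2 crossing comparisons share the libraries without FGF1. Members of at least 55% GC had a median of -1.85 and 1.81, and the others 0.53 and -0.01. A GC offset per library moved the counts over all genes as well as those of the members. For D32 without FGF1 against D26 across library sets, the genes called went from 12861 to 9195 and the members from 27 to 18, with 10 higher and 8 lower. For FGF1 at D32 across library sets, the genes went from 9563 to 3665 and the members from 24 to 6, all higher.

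**Figure D5:**
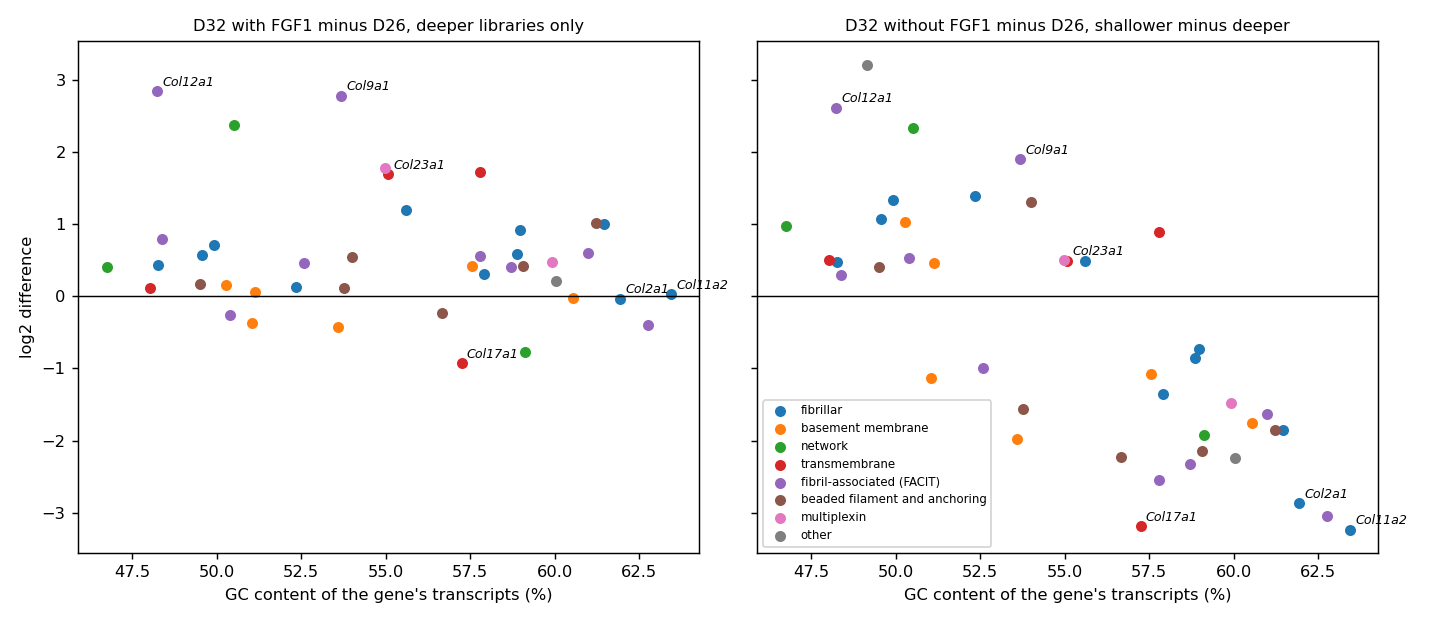
Log2 difference of each collagen against the GC content of its transcripts (in %), within the deeper libraries for D32 with FGF1 minus D26 (left, 42 members) and across library sets for D32 without FGF1 minus D26 (right, 43 members); colours give the class. On the right the GC-rich members lie low (Spearman correlation -0.734), while on the left the correlation is -0.105.

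Col9a1 and Col12a1 were the only members higher in all 9 libraries at D32 without FGF1 than in all 6 at D26 (19.8% of genes above 0.5 CPM were higher in this way and 23.9% lower), at 40.0 to 120 against 12.2 to 38.7 CPM and at 9.86 to 25.7 against 0.367 to 8.74 CPM. Their differences were 1.90 (SE 0.262, adjusted p = 3.73e-05) and 2.62 (SE 0.456, adjusted p = 0.000229). There were 14 members lower in all 9: Col2a1, Col4a2, Col4a5, Col4a6, Col6a1, Col6a2, Col6a4, Col7a1, Col9a2, Col9a3, Col11a2, Col17a1, Col20a1 and Col26a1. Col17a1 was at 4.16 to 7.52 against 39.3 to 57.5 CPM (-3.19, SE 0.341, adjusted p = 3.73e-06), against -0.93 within the deeper libraries. With the GC offset its difference was -1.60, and that of Col9a1 was 2.60. Col2a1, at 4.27 to 59.5 against 106 to 170 CPM, passed in both comparisons that cross sets (-2.87 and 2.46) and had -0.04 within the deeper libraries.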

How the data were processed

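Each sample was poly(A) RNA sequenced from a directional library. Per the submitters' processing notes the tools were Trimmomatic 0.36, kallisto 0.45.0 and edgeR, with genome GRCm38.p6. The authors deposited estimated counts per gene and per transcript for 23 libraries, not normalized. They also deposited a table of normalized CPM signal for 18 of them, scaled between libraries, and per the file headers other columns of that table give gene position, strand and biotype. That table was used for the member rule, positions and set membership only.

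Estimated counts were rounded. Genes were kept by filterByExpr, scaled by TMM, and tested with edgeR 4.0.16 quasi-likelihood (R 4.3.3), with Benjamini-Hochberg adjustment over all genes tested and a threshold of 0.05. CPM in the text is the count over the TMM-scaled library size, and CPM per kb divides it by transcript length. The 12 deeper libraries (at least 14000000 counts) were fitted with 6 groups, all 23 with stratum and medium, the 11 shallower with medium, FGF1 and membership of the authors' table, and all 23 with 9 groups for comparisons across sets. P values measure only the spread between these samples. Counts of non-overlapping genes used genes of mean CPM above 0.5. DESeq2 1.42.0, limma 3.58.1 voom, RLE scaling, no filter, a GC offset, a replicate block and leaving out each library were tried. The fits were tested on simulated data.

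Members and gene lists were chosen with earlier results of these data known. Values were given for the 3 members of each class with the highest mean and up to 6 with the smallest p in each comparison; others named were chosen after their values were seen. Replicate numbers come from the labels, which name no shared batch. At D32 without FGF1 same-numbered DHA and LA libraries correlated at 0.3 to 0.765 over 3 numbers, so the numbers were taken to pair them. BSA libraries were not checked in this way. There replicate 1 is also the set outside the authors' table. The main fit of the shallower libraries used that membership but not the replicate numbers. Sequences came from GENCODE M21 and RefSeq, both of GRCm38.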

Additional observations from a re-analysis of the deposited data

Results flagged for a closer look

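A second row for Col4a6, on a patch sequence, was used in no comparison and held up to 534.6 estimated counts in a library, identical to the X chromosome row in each library. In Col24a1 and Col17a1 both DHA libraries lay on opposite sides of the LA libraries at D26 and at D32 with FGF1. The difference between the stages was -2.04 for Col24a1 (adjusted p = 0.691, edgeR interaction) and 0.67 for Col17a1 (adjusted p = 0.762), so neither passed.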

How the results depend on the processing

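Numbers here are collagens called at an adjusted p under 0.05, with all genes called in brackets. D32 with FGF1 against D26 in the deeper libraries called 14 (5773 of 20111), and 25 without a filter on low counts (6563 of 35601). DHA against LA at D32 with FGF1 called 0 (2 of 20111), but 6 with DESeq2 (147) and 17 without a filter (528 of 35601). The next 7 comparisons had 0 collagens and 0 genes with the filter. Without it, DHA against LA within strata called 10 (228 genes), DHA against BSA 2 (81), LA against BSA 5 (169), DHA against LA at D26 6 (122), DHA against LA at D32 without FGF1 1 (60), the interaction 8 (332) and FGF1 in the shallower libraries 1 (32). LA against BSA with the deeper libraries only called 1 (1 gene). FGF1 at D32 across sets called 24 (9563), 6 with a GC offset (3665) and 9 with the replicate block and GC offset (4234). The cause was not tested.

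With the replicate block, DHA against LA at D32 with FGF1 called 2 (Col1a1, adjusted p = 0.0159, and Col3a1, 0.0438; edgeR) among 35 genes, and 1 with the block and GC offset among 19. These numbers rest on 2 pairs with a correlation of 0.335. With only 2 replicate numbers per group, it cannot be decided whether the numbers pair these libraries. The crossed pairing at D26, tried after seeing the data because the correlation was -0.146, called 0. Leaving out each library in turn gave 11 to 17 (4326 to 5899 genes) for D32 with FGF1 against D26, 22 to 29 (11321 to 13320) for D32 without FGF1 against D26, 18 to 26 (6429 to 12044) for FGF1 at D32 across sets, 0 to 1 (0 to 26) for DHA against LA at D32 with FGF1, and 0 (0 to 1) for the other 7 comparisons. Values of the collagens followed singly kept direction in all settings run, with 25 losing and 32 gaining a call out of 1261. Across sets these were only Col17a1, Col9a1 and Col6a1 for D32 without FGF1 against D26, and Col17a1, Col9a3 and Col26a1 for FGF1. The direction of other collagens named in those comparisons was not followed.

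Groups of 2 or 3 libraries from 1 clone limit the medium comparisons, and low members such as Col6a6 were not testable at this depth.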
